A study of Mus musculus with 6 samples.

Results

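The hypoxia and glycolysis genes are 10 genes chosen by their Ensembl identifiers, and 7 of them had a row in the table of 17204 genes. These were Hif1a (ENSMUSG00000021109), Egln3 (ENSMUSG00000035105), Slc2a1 (ENSMUSG00000028645), Hk2 (ENSMUSG00000000628), Pdk1 (ENSMUSG00000006494), Vegfa (ENSMUSG00000023951) and Ndrg1 (ENSMUSG00000005125). Pgk1 and Ldha, which encode enzymes of lower glycolysis and of lactate production, and Bnip3, which encodes a mitophagy receptor, had no row and were not analysed here. Expression was compared between 2 mouse squamous cell carcinoma (SCC) lines, with 3 arrays of each. The carcinomas arose in the skin of K14CreER FAKflox/flox mice on the FVB background under chemical carcinogenesis, where the keratin 14 promoter drives an inducible Cre recombinase in basal keratinocytes. SCC FAK-/- is 1 clone isolated after tamoxifen-induced deletion of fak, the gene of focal adhesion kinase (FAK). SCC FAK-wt is that clone after retroviral transduction with wild-type FAK, so both lines carry the same deletion. The FAK-wt line was grown under hygromycin selection, and the return of FAK cannot be told apart from transduction and selection. No array came from cells labelled as hypoxic, and the oxygen level of the cultures is not given in the sources used here.

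Cells sense oxygen through prolyl hydroxylases, which mark the HIF alpha subunits for destruction when oxygen is present. When oxygen falls, HIF-1α accumulates as a protein, pairs with its partner ARNT and binds short DNA motifs near genes for glucose uptake, glycolysis, angiogenesis and mitochondrial turnover. The level of Hif1a mRNA does not report that step, since the control acts on the protein. Many carcinomas run this programme of glucose use also in the presence of oxygen, and growth factor signalling can feed into the same genes.

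The authors summarised the arrays to 1 log2 value per gene by Robust Multi-array Average (RMA). Array medians lay between 5.90 and 5.97, and Pearson's r between arrays across all genes was 0.988 to 0.993 within a line and 0.983 to 0.989 between lines. A gene was called at a limma adjusted p under 0.05 (Benjamini-Hochberg over all genes), and each difference is given as SCC FAK-wt minus SCC FAK-/-. The replicates are biological replicates by the design text, which does not say what separates them, so the p-values measure the spread between these arrays. The values come from bulk RNA, where fewer cells of a type and less RNA per cell cannot be told apart. The table lists identifiers without symbols, and neither the level of the fak gene nor epithelial markers were checked here.

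Hk2 was the only one of the 7 genes called, and it was higher in SCC FAK-wt. Over all genes, 1.92% were called, 0.820% higher and 1.10% lower. The study states a threshold of p under 0.01 and does not say whether that p was adjusted. At an unadjusted limma p under 0.01, Hk2 and Pdk1 were higher and Ndrg1 was lower. These were 3 of 7 genes, where 6.85% of all genes passed, 3.19% higher and 3.66% lower. The arrays of the lines did not overlap in 5 of the 7 genes, against 21.5% of all genes. Egln3, Hk2 and Pdk1 lay above the SCC FAK-/- arrays without overlap, as did 11.5% of all genes, and Vegfa and Ndrg1 lay below, as did 10.0%. The absolute log2 fold change had a median of 0.34 over the 7 genes and 0.14 over all genes. The signed median was 0.06 over the 7 genes and 0.02 over all genes, as higher and lower values were both present.

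**Figure D1:**
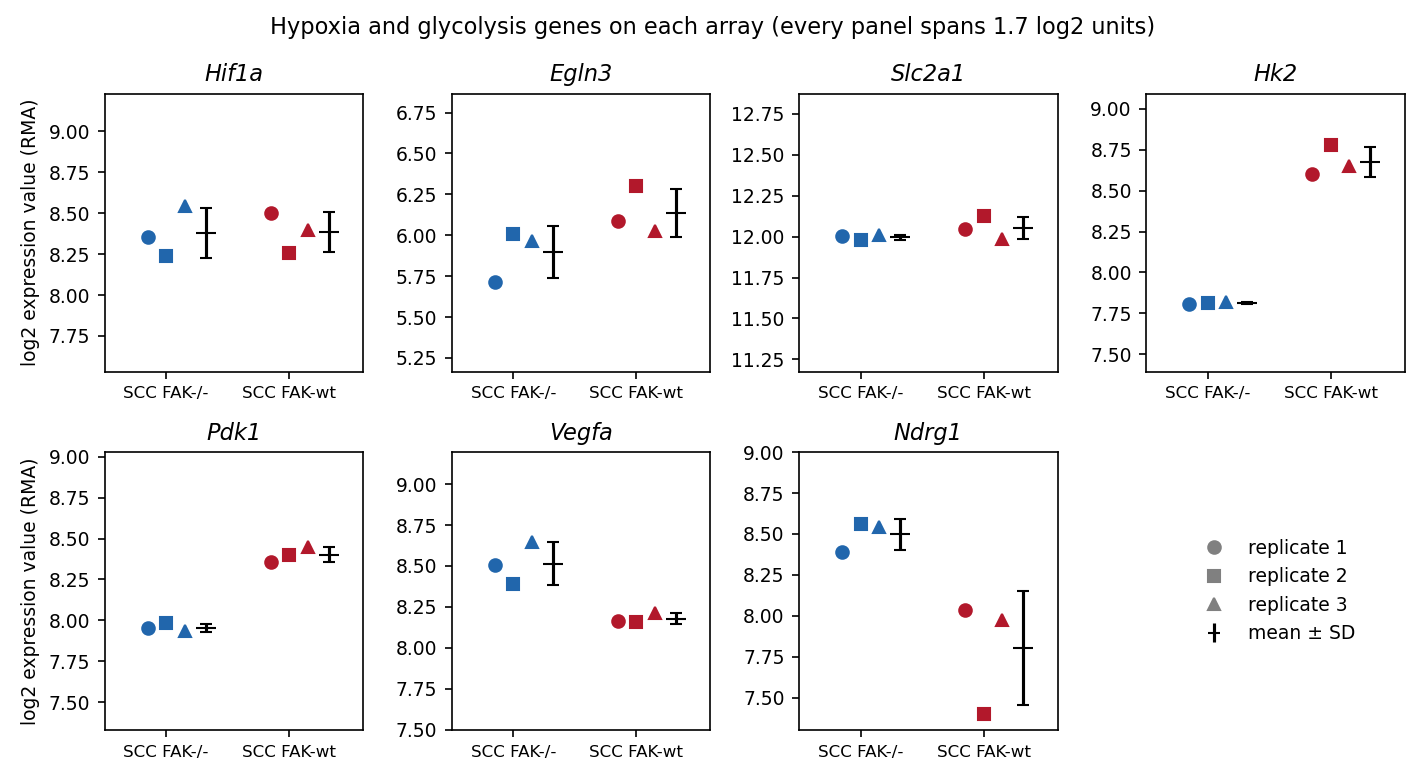
Log2 RMA value of each gene on each array, SCC FAK-/- in blue and SCC FAK-wt in red, with marker shape for the replicate number and the black bar for mean ± SD of 3 arrays; every panel spans the same height. Hk2 and Pdk1 sat higher and Vegfa and Ndrg1 lower on all 3 SCC FAK-wt arrays, and Hif1a and Slc2a1 overlapped.

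Among the genes of oxygen sensing, Hif1a encodes the regulated alpha subunit itself. Its log2 values were 8.35, 8.24 and 8.54 in SCC FAK-/- replicates 1 to 3 and 8.50, 8.26 and 8.40 in SCC FAK-wt replicates 1 to 3. The arrays of the lines were intermixed. The means were 8.38 ± 0.15 (SD, n = 3) in SCC FAK-/- and 8.39 ± 0.12 (SD, n = 3) in SCC FAK-wt, which differ by 0.01 on the log2 scale (limma, standard error 0.12, adjusted p = 0.986). The 95% interval ran from -0.28 to 0.29, which is from 1.21-fold down to 1.23-fold up. The sign of this small difference turned under quantile normalization (-0.02), without SCC FAK-wt replicate 1 (-0.05) and without SCC FAK-/- replicates 1 (-0.004) or 2 (-0.06).

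Egln3 encodes PHD3, a HIF prolyl hydroxylase that is itself induced by HIF and so feeds back on the pathway. Its log2 values were 5.71, 6.01 and 5.97 in SCC FAK-/- and 6.09, 6.30 and 6.02 in SCC FAK-wt. The lines did not overlap, but the nearest arrays were only 0.018 apart, less than the range within either line (0.29 and 0.28). The log2 fold change was 0.24 (limma, standard error 0.13, adjusted p = 0.435), with a 95% interval of -0.06 to 0.54. Without SCC FAK-wt replicate 2, the highest array, it was 0.16, and without SCC FAK-/- replicate 1, the lowest, it was 0.15. Measured against Hif1a on the same array, Egln3 was 0.23 higher on the log2 scale in SCC FAK-wt, and those differences overlapped between the lines (exact permutation test, two-sided, p = 0.3, n = 3 per line; 0.3 after adjustment over the 2 pairs compared).

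The genes of glucose uptake and of the first chemical step of glucose use gave different fold changes in mRNA. Neither uptake nor enzyme activity was measured. Slc2a1 encodes GLUT1, the glucose transporter of the plasma membrane, and Hk2 encodes hexokinase 2, which phosphorylates glucose and so keeps it in the cell. Slc2a1 had log2 values of 12.002, 11.980 and 12.008 in SCC FAK-/- and 12.046, 12.126 and 11.986 in SCC FAK-wt. The arrays overlapped, and the replicates were close, with a SD of 0.015 in SCC FAK-/- and 0.070 in SCC FAK-wt. The difference of 0.06 log2 units (limma, standard error 0.09, adjusted p = 0.849) was within the spread. Its 95% interval of -0.16 to 0.28 ran from a 1.12-fold lower to a 1.21-fold higher level in SCC FAK-wt.

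Hk2 had log2 values of 7.81, 7.81 and 7.82 in SCC FAK-/- and 8.60, 8.78 and 8.65 in SCC FAK-wt. All SCC FAK-wt arrays lay above all SCC FAK-/- arrays, and the nearest arrays were 0.78 apart, against a range of 0.18 within SCC FAK-wt. The SCC FAK-/- arrays differed by 0.014 at most. The SCC FAK-/- mean was 7.81 ± 0.0070 (SD, n = 3) and the SCC FAK-wt mean 8.68 ± 0.091 (SD, n = 3). Hk2 thus rose by 0.86 log2 units (limma, standard error 0.10, adjusted p = 0.00863). On the linear scale this was 1.82-fold, with a 95% interval of 1.55-fold to 2.13-fold. Ranked by p, Hk2 stood at place 70 of 17204 genes, and 161 genes had a larger positive log2 fold change. The call held in each of the 6 fits that left out 1 array, with adjusted p from 0.0326 to 0.0493, close to the threshold at the upper end.

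On each array, the log2 value of Hk2 was set against that of Slc2a1, which asks whether the transporter and the kinase changed by the same amount. The difference between them moved by 0.81 log2 units between the lines, with a SD of 0.060 in SCC FAK-wt and 0.014 in SCC FAK-/-, and the arrays of the lines did not overlap. The exact permutation test (two-sided, n = 3 per line) gave p = 0.1, the smallest that 3 arrays against 3 allow, and 0.2 after adjustment over the 2 pairs compared. The same p of 0.1 was reached by each of the 5 genes whose arrays did not overlap, so this test could not separate Hk2 from Egln3.

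**Figure D2:**
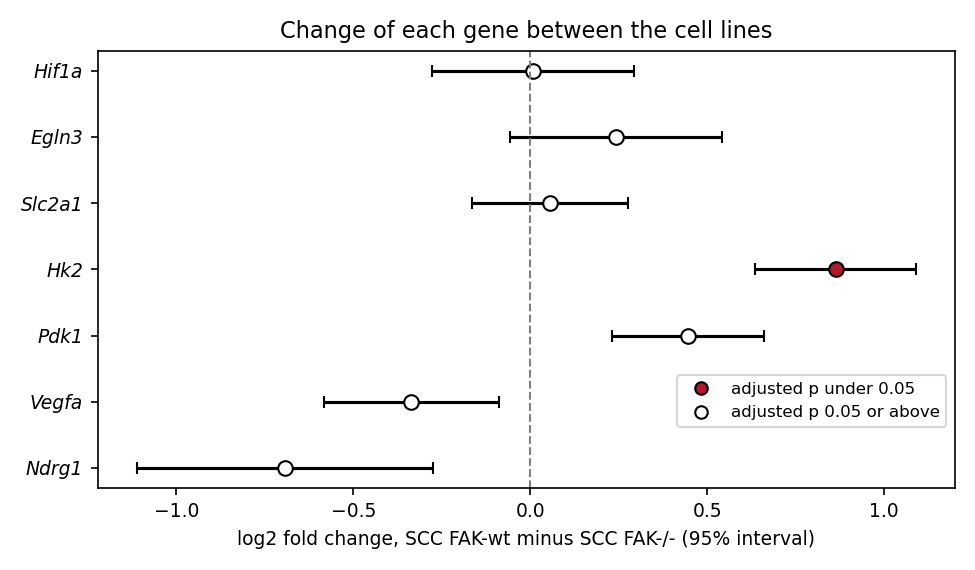
Log2 fold change of each gene (SCC FAK-wt minus SCC FAK-/-, n = 3 arrays each) with its 95% interval from limma; a filled point marks an adjusted p under 0.05. Hk2 at 0.86 is the filled point, the intervals of Pdk1, Vegfa and Ndrg1 miss 0, and those of Hif1a, Egln3 and Slc2a1 span it.

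Pdk1 encodes pyruvate dehydrogenase kinase 1, which switches off the pyruvate dehydrogenase complex and so keeps pyruvate out of the mitochondrial citrate cycle. Its log2 values were 7.95, 7.98 and 7.93 in SCC FAK-/- and 8.36, 8.40 and 8.45 in SCC FAK-wt. The lines were set apart by a gap of 0.37, wider than the ranges within them (0.048 and 0.095). The log2 fold change was 0.45 (standard error 0.09), or 1.36-fold with a 95% interval of 1.17-fold to 1.58-fold. The unadjusted limma p was 0.0016 and stayed under 0.01 in all 6 fits that left out 1 array, but the adjusted p of 0.0646 missed the threshold. Pdk1 passed (adjusted p = 0.0493) when the dimmest genes were left out and 11469 were tested, with the same fold change. Pdk1 was therefore separated from its replicate spread as a single gene and not after adjustment over the whole table.

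Vegfa encodes the main angiogenic growth factor of the HIF programme, a secreted ligand for receptors on endothelial cells. Its log2 values were 8.51, 8.39 and 8.65 in SCC FAK-/- and 8.17, 8.15 and 8.21 in SCC FAK-wt. All SCC FAK-wt arrays were below all SCC FAK-/- arrays, and they were also closer together, with a range of 0.060 against 0.26. The log2 fold change was -0.34 (limma, standard error 0.11, adjusted p = 0.177), which is a level 1.26-fold lower in SCC FAK-wt with a 95% interval of 1.06-fold to 1.497-fold. The unadjusted limma p was 0.0145, above 0.01. Among the alternatives only quantile normalization took it under 0.01, to 0.00705, where the adjusted p was 0.12. Median centring moved it the other way, to 0.0274, and the replicate block gave 0.0295. In the fits without 1 array it ran from 0.0130 to 0.0474.

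Ndrg1 encodes a cytoplasmic stress-response protein whose mRNA is raised by hypoxia and by differentiation in epithelial cells. Its log2 values were 8.39, 8.56 and 8.54 in SCC FAK-/- and 8.04, 7.40 and 7.97 in SCC FAK-wt. The lines did not overlap, with 0.35 between the nearest arrays, and SCC FAK-wt replicate 2 lay well below the other two of its line. The SD was accordingly 0.35 in SCC FAK-wt and 0.095 in SCC FAK-/-. The log2 fold change was -0.69 (limma, standard error 0.18, adjusted p = 0.112), a level 1.62-fold lower in SCC FAK-wt with a 95% interval of 1.21-fold to 2.16-fold. Without SCC FAK-wt replicate 2 the log2 fold change was -0.49 with an adjusted p of 0.129. The unadjusted p of 0.00557 rose above 0.01 without any 1 of the SCC FAK-/- arrays, to between 0.0115 and 0.0202. It also rose, to 0.0294, in the fit without limma's moderation of variances, where the standard error was 0.21. In absolute size the difference in Ndrg1 came second to that of Hk2, and its standard error was the highest of the 7 genes.

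**Figure D3:**
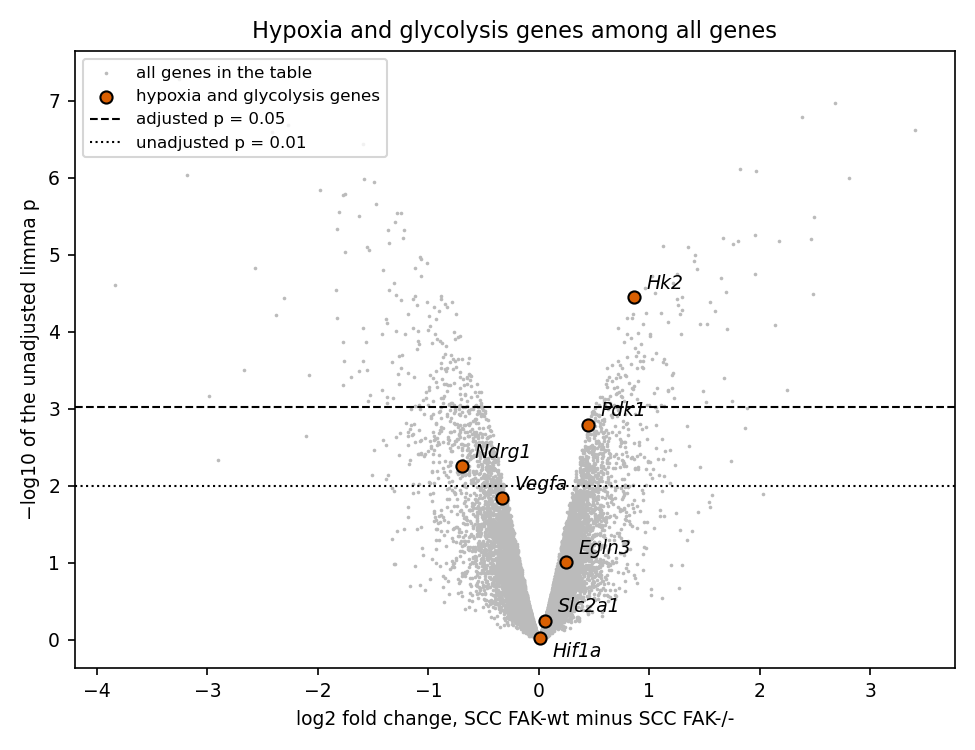
Each grey point is 1 of 17204 genes, placed by its log2 fold change (SCC FAK-wt minus SCC FAK-/-) and by −log10 of its unadjusted limma p; orange points are the hypoxia and glycolysis genes, and the lines mark an adjusted p of 0.05 (dashed) and an unadjusted p of 0.01 (dotted). Hk2 lies above both lines, Pdk1 and Ndrg1 between them, and Vegfa, Egln3, Slc2a1 and Hif1a below both.

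HIF binds a core of 5 bases, ACGTG or GCGTG, and the annotated promoters of these genes were read for it. The windows are the 250 bases before each RefSeq start (GRCm38.p6) and were available for 6 of the 7 genes, in 8 windows since Pdk1 and Vegfa have 2 starts each; Ndrg1 was not in the promoter table. Both motifs were searched on both strands, and CACGTG, which reads ACGTG on each strand, was counted once per strand. The windows of Hk2 and Pdk1 are shown because these genes had the highest positive fold changes, and those of Slc2a1 and Hif1a because their values overlapped between the lines. Sequences run 5′ to 3′ on the gene's strand, the last base lies just before the annotated start, and capitals mark the motifs, which appear as CACGT or CACGC where they lie on the opposite strand.
Hk2, chr6:82774455-82774704, minus strand: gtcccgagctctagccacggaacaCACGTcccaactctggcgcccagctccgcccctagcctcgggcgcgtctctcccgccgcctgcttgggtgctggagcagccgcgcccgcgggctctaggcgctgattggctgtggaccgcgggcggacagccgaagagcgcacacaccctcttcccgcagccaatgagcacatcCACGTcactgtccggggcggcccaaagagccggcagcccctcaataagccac
Pdk1, chr2:71872974-71873223, plus strand: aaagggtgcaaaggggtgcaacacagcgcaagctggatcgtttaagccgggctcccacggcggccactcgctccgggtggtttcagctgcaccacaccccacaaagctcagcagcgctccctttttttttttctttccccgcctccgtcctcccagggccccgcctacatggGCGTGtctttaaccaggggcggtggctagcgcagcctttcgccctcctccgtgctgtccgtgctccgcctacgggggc
Slc2a1, chr4:119108495-119108744, plus strand: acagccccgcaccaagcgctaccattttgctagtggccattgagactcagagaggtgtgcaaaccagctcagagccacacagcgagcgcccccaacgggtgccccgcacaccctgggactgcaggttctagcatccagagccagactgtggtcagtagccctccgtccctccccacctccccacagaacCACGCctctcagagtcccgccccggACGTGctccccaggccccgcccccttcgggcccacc
Hif1a, chr12:73907617-73907866, plus strand: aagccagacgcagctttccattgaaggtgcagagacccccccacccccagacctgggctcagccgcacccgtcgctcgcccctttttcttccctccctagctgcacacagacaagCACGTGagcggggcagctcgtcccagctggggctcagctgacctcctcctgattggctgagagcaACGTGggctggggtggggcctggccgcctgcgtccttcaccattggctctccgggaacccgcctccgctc

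The window of Hk2 held ACGTG at 2 places, both on the opposite strand, 226 to 222 and 52 to 48 bases before the start. That of Pdk1 at its first start held 1 GCGTG, 78 to 74 bases before it, and the window of its second start held neither motif. Slc2a1 held 1 ACGTG, 36 to 32 bases before the start, and 1 GCGTG on the opposite strand, 61 to 57 bases before it. Hif1a held a CACGTG whose 2 readings cover 135 to 130 bases before the start, and an ACGTG at 70 to 66. Egln3 held 1 ACGTG at 229 to 225. Vegfa held neither motif before its first start (chr17:46032378-46032627, minus strand). Both motifs lay before its second start (chr17:46025164-46025413), which lies farther along the gene. That window is inside the gene, and the bases around its motifs read as Vegfa protein-coding sequence. The counts that follow include it. Of the 8 windows, 6 held at least 1 of the motifs, against 38.6% of all 32851 promoter windows. ACGTG was in 5 of the 8 against 16.6% of all, and GCGTG in 3 of the 8 against 28.2% of all. The genes were chosen as hypoxia and glycolysis genes, so these shares say nothing about the arrays. Pdk1 and Vegfa each count with more than 1 window. Genes whose arrays did not overlap and genes whose arrays did both had windows with a motif, and a match of letters is a description and not a binding site.

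**Figure D4:**
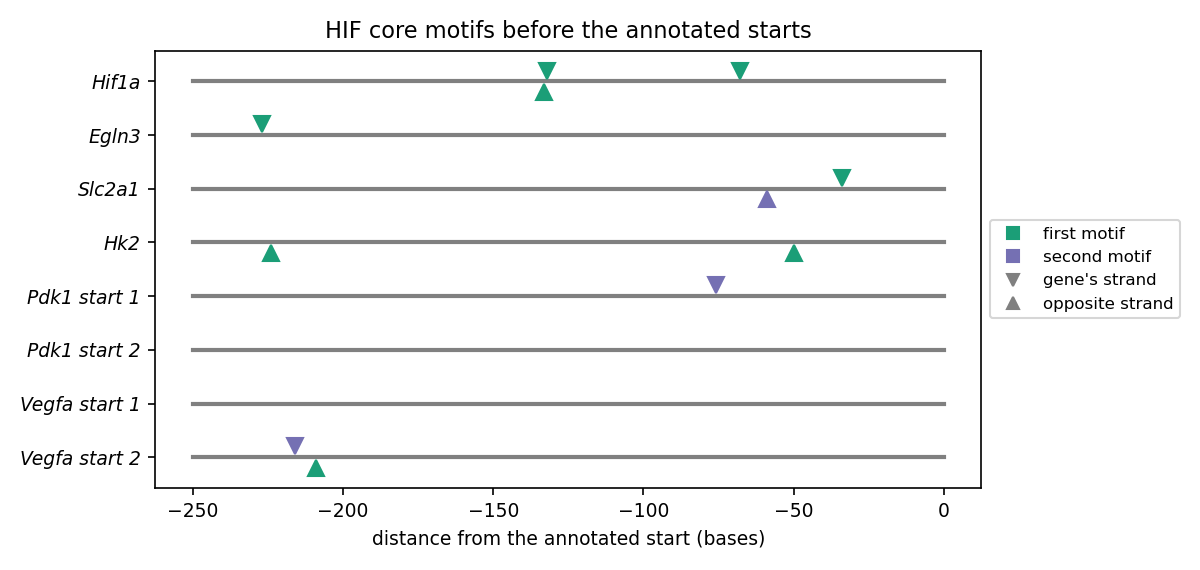
Position of the HIF core motifs in the 250 bases before each annotated start, which is at 0 on the horizontal axis in bases; green is ACGTG and purple GCGTG, and triangles above the line lie on the gene's strand and those below it on the opposite strand. Of 8 windows, 6 hold a motif, and those of the second Pdk1 start and the first Vegfa start hold none. The motifs of the second Vegfa start lie in coding sequence inside the gene.

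Across the alternatives, Hk2 was called each time, as the plot of adjusted p by setting shows, with adjusted p from 0.00672 to 0.0493 and log2 fold changes from 0.81 to 0.90. Pdk1 came nearest among the others, with adjusted p from 0.0493 to 0.186 and log2 fold changes from 0.42 to 0.48. Vegfa and Ndrg1 kept a negative fold change under each alternative, from -0.40 to -0.27 and from -0.81 to -0.49, with adjusted p from 0.12 to 0.369 and from 0.0813 to 0.286. Egln3 stayed positive, from 0.15 to 0.30, and Slc2a1 stayed between 0.02 and 0.09. With 3 arrays per line, a miss of the threshold does not show that a gene was equal in the lines.

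**Figure D5:**
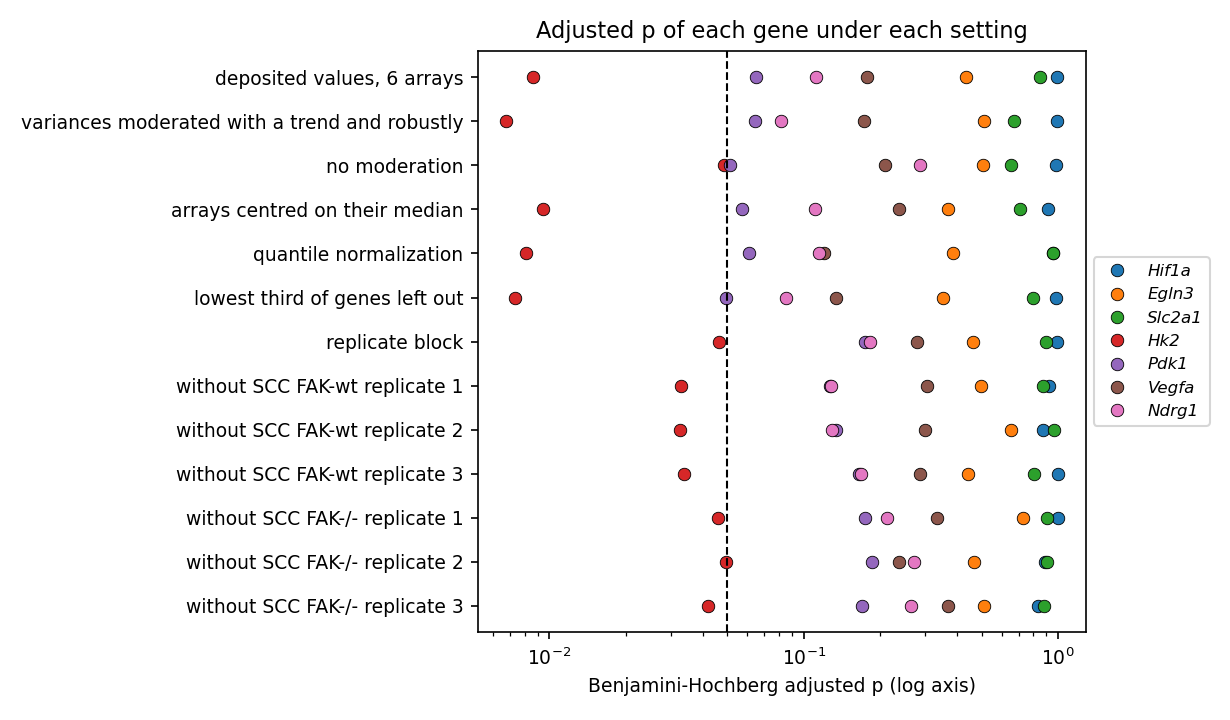
Benjamini-Hochberg adjusted p of each gene (colour) on a log axis, 1 row per setting, with the dashed line at 0.05; settings are the deposited values, other moderation or scaling, a filter on dim genes, the replicate block and fits without 1 array. Hk2 stays left of the line in each row and Pdk1 touches it from the left only when the dimmest genes are left out (0.0493).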

How the data were processed

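Total RNA of both cell lines (3 samples each) was amplified, biotin labelled and hybridized to mouse Affymetrix arrays. Probe signals were summarised by the authors to Ensembl gene identifiers and normalized with RMA in the affy package. That the deposited values are log2 follows from where they lie (1.34 to 13.76). The package version and probe mapping are not given in the sources used here. No filter was applied to the 17204 genes. RMA can understate fold changes of dim genes, and arrays have no read depth.

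The cell lines were compared in R 4.3.3 by limma 3.58.1 (moderated variances, cell line as the only term, two-sided), and p-values were adjusted by Benjamini-Hochberg over all genes. The code was tested on simulated data. The methods state a p threshold and no test. Gene names of the 10 members came with their identifiers, and the members and lists were chosen with earlier results of these data known. All members were named. No table paired other identifiers with symbols, so the planned lists of glycolysis, HIF pathway, hypoxia and pyruvate genes, cell type markers and the targeted gene were not run. The 2 pairs set against each other were the members that share a role and had values. Promoter sequences were taken from RefSeq (GRCm38.p6). The alternatives were other moderation, median centring, quantile normalization, a filter on dim genes, the unadjusted threshold, the replicate number as a block and leaving out each array.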

Additional observations from a re-analysis of the deposited data

How the results depend on the processing

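One gene (Hk2) was called higher and 0 lower at an adjusted p under 0.05 with limma. At an unadjusted p under 0.01 there were 2 higher (Hk2 at 0.86 and Pdk1 at 0.45 on the log2 scale) and 1 lower (Ndrg1 at -0.69), by construction of the looser threshold. Without the dimmest genes 2 were higher, the second being Pdk1 at 0.45, since 11469 genes entered the adjustment in place of 17204. Hif1a, whose difference was near 0, changed sign under quantile normalization (-0.0227), and the fits without 1 array gave -0.0618 to 0.0900, with negative values of -0.0501, -0.0043 and -0.0618 without replicate 1 of SCC FAK-wt and replicates 1 and 2 of SCC FAK-/-, in this order. Without 1 array the counts were 1 higher and 0 lower in each of 6 fits. In the limma fit with a replicate block, Hk2 was at 0.86 with an adjusted p of 0.0466 and no call changed. Pdk1 moved to an adjusted p of 0.174 in that limma fit. Same-numbered arrays deviated together at r of -0.034 to 0.028 across genes. No shared deviation was therefore seen, which does not settle whether same-numbered samples were prepared together. Of 91 fold changes under the alternatives, 84 kept direction and side of the threshold, and of 26 counts of called genes 23 stayed the same. Other moderation, the filter on dim genes, the unadjusted threshold and the replicate block leave each fold change as it was. Direction could turn only under median centring, quantile normalization and the fits without 1 array, so the 84 are not all tests of direction. The planned lists were not run. The number of arrays limits the precision.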
